A study of Sus scrofa with 48 samples.

Results

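Interferon-stimulated genes were followed in whole blood of pigs divergently selected for residual feed intake (RFI), which scores how much more or less a pig eats than its weight gain and upkeep would call for. A list of 41 genes known to be induced by interferons was matched by gene name to the spots of a custom porcine microarray, and a gene was kept when at least 1 of its spots was among the 37113 spots retained by the authors. In all, 35 of the 41 genes and 76 of their 83 spots were kept, among 10946 gene names on the retained spots. RSAD2, EIF2AK2, DTX3L, IFITM2, IFITM3 and CMPK2 had no retained spot of that name and are not among the 35. Spots under other names that list RefSeq transcripts of RSAD2 and EIF2AK2 are described at the end. The arrays held 48 castrated male, purebred French Large White pigs: 24 low RFI pigs, from the feed-efficient line, and 24 high RFI pigs, from the other line. Within each line, 12 pigs had free access to a high-fat, high-fiber (HF) diet and the other 12 to a low-fat, low-fiber (LF) diet. Blood was taken at slaughter at 132 days of age, and each pig had 1 array labelled with Cy3. The lines are unchallenged selection lines with no infected or interferon-treated group among them, and line and diet are the factors that the labels give.

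Interferons are secreted when cells sense viral or bacterial nucleic acids. Type I interferons bind a receptor on nearly every cell, and the receptor activates a complex holding STAT2 and IRF9 that switches on the genes studied here. Their products sense foreign RNA (IFIH1, DDX58), or block its translation or degrade it (IFIT and OAS families). Others hold virus particles at the cell surface (BST2), block virus entry (IFITM1), act as antiviral GTPases (MX1) or tune the response (USP18, ISG15). Whole blood carries these transcripts in neutrophils, monocytes, lymphocytes and reticulocytes, and a raised blood level of MX1 or ISG15 is widely read as a sign of recent interferon exposure.

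All values below are log2 signal over the median of the array, so a value of 0 is the level of the median retained spot, and a gene's value is the mean of its spots. The 76 spots were well above background on all 48 arrays. The arrays lay on 6 slides with 2 pigs of each group per slide, were scanned on 3 days, and had a median signal 5.9 to 16 times the background. Of 61 marker genes listed for 8 blood cell types, 46 had a retained spot, among them the hemoglobin gene HBB, CD14, CD3E and MS4A1. The deposited column of 1 high RFI pig fed HF (replicate 1) repeated a single value in 37090 entries, and its values were taken from the scanner file instead. The P-values measure the spread between pigs, which the labels give as separate animals, and in whole blood a lower value can mean fewer cells of a type or less RNA per cell, which cannot be told apart here. The study counted blood cells of these pigs at slaughter. It reports no line difference for neutrophils, lymphocytes or monocytes, and more red cells in low RFI pigs. These counts were not used here.

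The probes of the genes that the results turn on are printed here 5′ to 3′, as the array files give them. The BST2 probe is shown because BST2 was the 1 gene of the list called between lines, and each STAT2 and USP18 pair because the spots of these genes gave unequal line differences. The ISG15 and GBP2 pairs are shown because their probes overlap, and capitals mark the run that both share (43 bases in ISG15, 56 in GBP2).
BST2 A_72_P276294: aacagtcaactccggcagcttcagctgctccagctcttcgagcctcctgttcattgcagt
USP18 A_72_P077621: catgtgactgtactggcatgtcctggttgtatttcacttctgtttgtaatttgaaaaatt
USP18 A_72_P417087: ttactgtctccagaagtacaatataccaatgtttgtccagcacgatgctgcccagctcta
STAT2 A_72_P442654: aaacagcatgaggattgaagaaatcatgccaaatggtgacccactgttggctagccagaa
STAT2 A_72_P088106: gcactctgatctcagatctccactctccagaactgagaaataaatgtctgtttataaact
ISG15 A_72_P441219: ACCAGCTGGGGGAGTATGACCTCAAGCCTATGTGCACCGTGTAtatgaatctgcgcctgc
ISG15 O11065: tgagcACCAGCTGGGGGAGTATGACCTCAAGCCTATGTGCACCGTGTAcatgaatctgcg
GBP2 A_72_P293034: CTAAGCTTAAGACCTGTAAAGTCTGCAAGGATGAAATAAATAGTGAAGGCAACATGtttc
GBP2 A_72_P532613: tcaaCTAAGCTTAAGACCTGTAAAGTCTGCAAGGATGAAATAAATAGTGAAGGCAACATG
No probes of different listed genes shared a run of 18 or more bases. Within genes, 5 pairs of probes shared such a run, and their spots correlated at 0.96 to 0.99.

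Between lines, 1 of the 35 genes was differentially expressed (DE). BST2, or tetherin, which holds budding enveloped viruses at the cell surface, was underexpressed in low RFI pigs at an adjusted P-value under 0.05 (limma, Benjamini-Hochberg over all 10946 genes). In the same fit 3.29% of all genes were DE, 1.64% lower and 1.65% higher in low RFI pigs, so the share of the list was near the background. By the criterion of the study's methods, a P-value under 0.01 with a fold change (FC) above 1.1, BST2 was again the 1 gene of the list, against 6.19% of all genes. Without adjustment, 6 genes of the list had a P-value under 0.05, against 13.1% of all genes. Each of the 6 was lower in low RFI pigs, as were 5.63% of all genes, while 7.43% of all genes were higher. The line difference was below 0 for 25 of the 35 genes and for 36.1% of all genes, and its median was −0.088 over the list and 0.027 over all genes.

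BST2 ranged from 0.04 to 1.31 in low RFI pigs (median 0.57) and from 0.26 to 1.83 in high RFI pigs (median 0.91). The lines overlapped, but 20 of the 24 low RFI pigs lay below the median of the other line. Low RFI pigs were 0.31 lower on the log2 scale (difference −0.31, SE 0.09, 95% interval −0.50 to −0.13, FC 1.24, P = 0.0014, adjusted P = 0.045). The difference was −0.24 among pigs fed HF and −0.39 among pigs fed LF, and on each of the 6 slides low RFI pigs were lower, by −0.60 to −0.12. The call sat close to the threshold: it was lost under 6 of 14 alternative settings, and when each pig was left out in turn the adjusted P-value ran from 0.017 to 0.075 and stayed under 0.05 in 19 of 48 fits. Without the high RFI pigs replicates 6 and 9 fed LF, which held the highest values of most listed genes, the BST2 difference was −0.25 (adjusted P = 0.11).

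**Figure D1:**
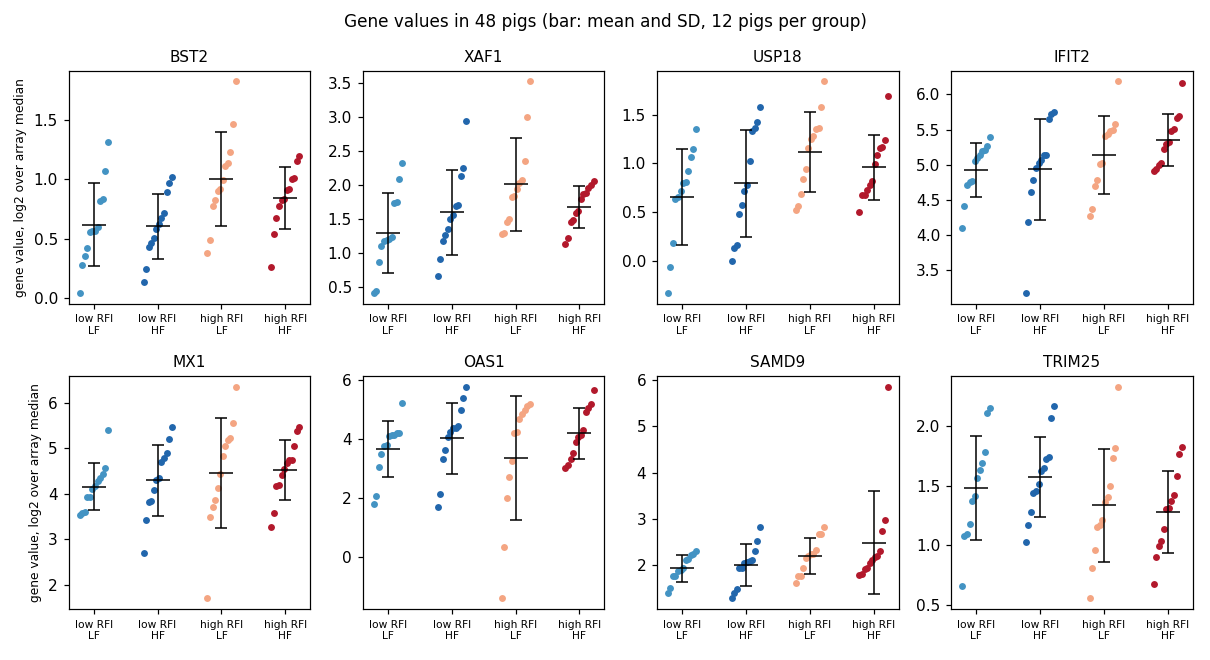
Log2 signal over the array median of 8 interferon-stimulated genes, one point per pig, in the 4 groups of 12 pigs (low RFI and high RFI, LF and HF), with bars for the mean and SD. BST2 is the 1 gene called between lines, with medians of 0.57 in low RFI and 0.91 in high RFI pigs, and the groups overlap in all 8 panels.

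The other 5 genes with an unadjusted P-value under 0.05 did not pass the adjustment. XAF1, a factor that promotes cell death by opposing inhibitors of apoptosis, ranged from 0.40 to 2.94 in low RFI pigs (median 1.30) and from 1.13 to 3.52 in high RFI pigs (median 1.82). The lines overlapped in both diets. Its line difference was −0.40 (SE 0.16, P = 0.016, adjusted P = 0.20), with −0.08 in pigs fed HF and −0.72 in pigs fed LF. SAMD9, a cytoplasmic protein that restricts poxviruses, had medians of 2.0 in low RFI and 2.2 in high RFI pigs and a difference of −0.38 (P = 0.042, adjusted P = 0.35). One high RFI pig fed HF (replicate 7) had a SAMD9 value of 5.85, and the next highest pig 2.97. Without that pig the SAMD9 difference was −0.22 (P = 0.043, adjusted P = 0.35), and low RFI pigs were lower on 6 of 6 slides with it.

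IFIT2, which binds viral RNA and slows its translation, ranged from 3.17 to 5.75 (median 5.06) in low RFI pigs and from 4.27 to 6.19 (median 5.31) in high RFI pigs. The lowest IFIT2 value belonged to the low RFI pig replicate 5 fed HF, 0.93 under the next pig, and the other pigs of both lines overlapped. The IFIT2 difference was −0.32 (SE 0.15, P = 0.036, adjusted P = 0.32). USP18 removes the ubiquitin-like protein ISG15 from its targets and damps signalling at the type I receptor. USP18 values ran from −0.34 to 1.58 (median 0.74) in low RFI pigs and from 0.50 to 1.85 (median 1.04) in high RFI pigs, with a difference of −0.31 (P = 0.018, adjusted P = 0.22). STAT2, a subunit of the factor that type I interferons activate, differed by −0.12 (P = 0.034, adjusted P = 0.31), and 20 of 24 low RFI pigs lay below the median of the other line.

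In the other direction no gene of the list had a P-value under 0.05. The highest positive difference was that of TRIM25, the ligase that activates the RNA sensor encoded by DDX58. TRIM25 ranged from 0.66 to 2.17 (median 1.54) in low RFI pigs and from 0.56 to 2.33 (median 1.31) in high RFI pigs, and 7 of 24 low RFI pigs lay below the median of the other line. Its difference was 0.22 (SE 0.11, P = 0.060, adjusted P = 0.43), and low RFI pigs were lower on 1 of 6 slides. OAS2, an oligoadenylate synthetase that responds to double-stranded RNA, came next with 0.18 (P = 0.30). DHX58, a regulator of the RNA sensors, differed by 0.13 (P = 0.38), IFIT1, which binds viral RNA that lacks a methylated cap, by 0.11 (P = 0.32), and OAS1 by 0.08 (P = 0.84). The adjusted P-values of these 4 genes were at least 0.807.

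By role, the line differences did not follow families throughout. The 4 antiviral GTPases lay below 0: MX1 at −0.26, MX2 at −0.15, GBP1 at −0.08 and GBP2 at −0.035. Without the low RFI pig replicate 11 fed LF, which had the highest GBP1 and GBP2, these last differences were −0.16 (P = 0.13) and −0.11 (P = 0.24). Among the 4 genes of the IFIT family, which lie side by side on chromosome 14 in the RefSeq gene order (assembly Sscrofa11.1), IFIT2 and IFIT3 (−0.21) lay below 0 and IFIT1 above it. Of the OAS and nuclease genes, ISG20, an exonuclease that degrades single-stranded RNA, lay at −0.27 and OASL at 0.05. The RNA sensors IFIH1 and DDX58 both lay at −0.19, and ZBP1, a sensor of Z-form nucleic acids, at 0.06. Genes of ISG15 conjugation lay at −0.19 (ISG15) and −0.12 (HERC5, the ligase), and the antibody receptor TRIM21 at 0.034. IRF1 and IRF7, transcription factors of the response, lay at −0.09 and −0.0067, and IRF9, the DNA-binding subunit that pairs with STAT2, at 0.036. The ADP-ribosylation proteins PARP14 and PARP9 lay at −0.21 and −0.07, and IFI44L, IFI6, IFI44 and IFI35 at −0.22, −0.16, −0.08 and −0.05. Apart from IFIT2, no gene given here by role had a P-value under 0.05. When each pig was left out in turn, the line difference of 19 of the 35 genes moved by over 1.5 times in at least 1 fit, and SAMD9 was the 1 gene among the 19 with a P-value under 0.05. In these fits ISG15 ran from −0.24 to −0.10, HERC5 from −0.17 to −0.050 and TRIM21 from 0.0017 to 0.059.

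**Figure D2:**
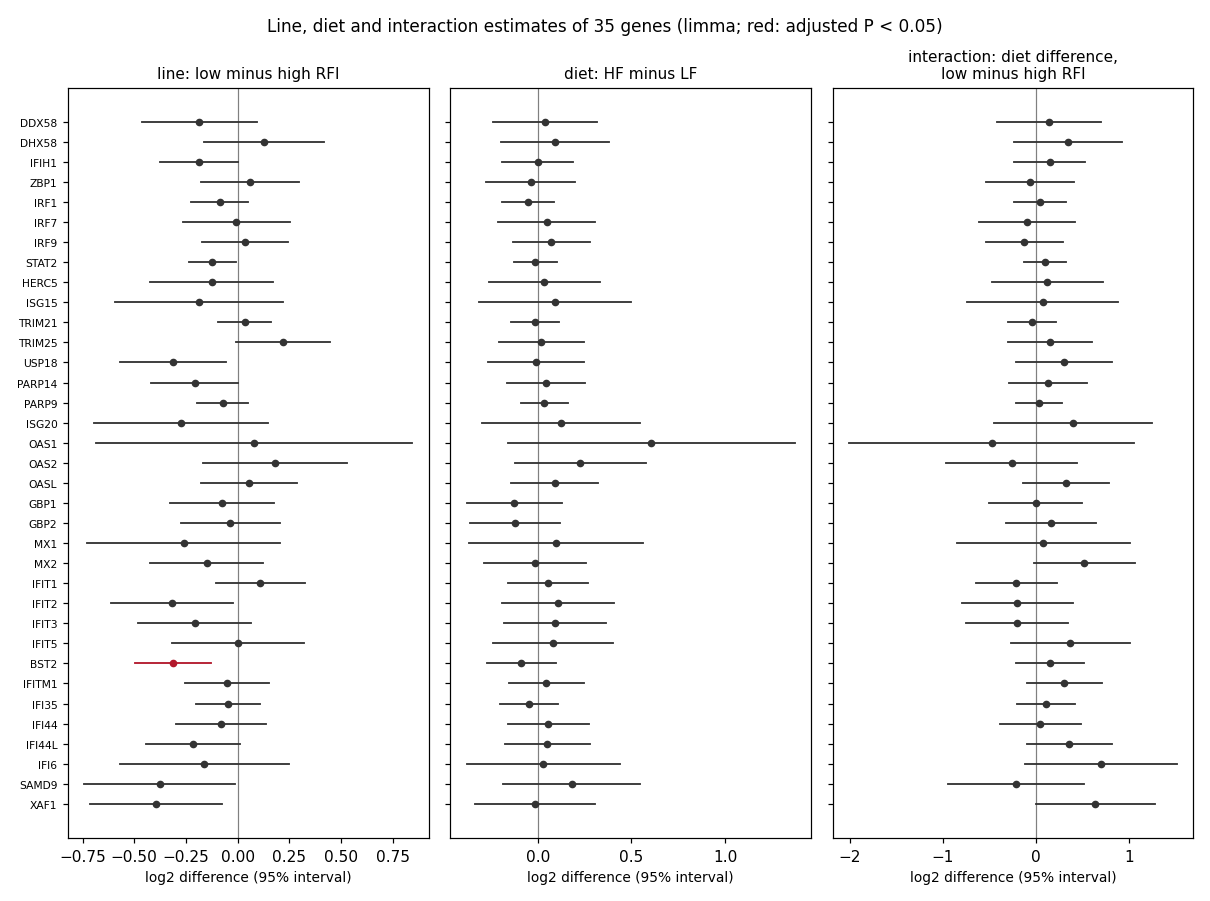
Line difference (low minus high RFI), diet difference (HF minus LF) and line by diet interaction of the 35 genes on the log2 scale, ordered by role, with 95% intervals from the fit over 48 pigs. For line, 25 of 35 points lie below 0 and the BST2 interval, −0.50 to −0.13, is far enough from 0 to pass the adjustment over all genes.

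At the level of single spots, 0 of the 76 spots of the list had an adjusted P-value under 0.05 in the limma fit, against 2.77% of all 37113 spots, and 11 had an unadjusted P-value under 0.05, against 12% of all spots. By the criterion of the methods 3 spots were DE, against 5.78% of all spots: the BST2 spot (adjusted P = 0.052), XAF1 A_72_P384698 (−0.45, adjusted P = 0.13) and STAT2 A_72_P442654 (−0.22, adjusted P = 0.064). All 3 were lower in low RFI pigs. Without moderation of the variances, as in the methods' analysis of variance, the adjusted count was also 0, and normexp background correction with quantile normalization gave 3.

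Spots of a gene mostly moved together, with exceptions that bear on the gene values. The 7 MX1 spots correlated across pigs at 0.94 to 0.99 and had line differences of −0.32 to −0.22, and the 2 overlapping ISG15 spots correlated at 0.99. In contrast, the STAT2 spot A_72_P088106 printed above stood apart from the other 5 STAT2 spots: correlations among the 6 spots ran from −0.29 to 0.86. Its line difference was −0.03, against −0.22 for A_72_P442654 and −0.23 for A_72_P651117. USP18 A_72_P077621 differed by −0.48 (P = 0.010) and A_72_P417087 by −0.15 (P = 0.17), and these spots correlated at 0.58. Of the 3 MX2 spots, A_72_P444240 (0.03) correlated at 0.14 to 0.18 with the others, which differed by −0.30 and −0.18. The spots of MX2, IFIT5, OASL and IRF7 gave line differences of both signs, none of them with an unadjusted P-value under 0.05. What these spots detect beyond the named gene was not tested.

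No gene of the list was called between diets. In the limma fit 0 of 35 genes were DE for diet, as were 0% of all genes, the analysis of variance without moderation also gave 0, and 0 of 35 had an unadjusted P-value under 0.05, against 1.94% of all genes. By the criterion of the methods the counts were 0 of 35 and 0.228%. OAS1 had the lowest P-value of the list (0.12): it ranged from 1.68 to 5.77 with HF (median 4.18) and from −1.40 to 5.21 with LF (median 4.12). The OAS1 difference was 0.61, and 2 pigs fed LF had values of −1.40 and 0.33, below all pigs fed HF. OAS2 followed with a diet difference of 0.23 (P = 0.20) and GBP2, a guanylate-binding GTPase induced mainly by interferon gamma, with −0.12 (P = 0.32). Without the low RFI pig replicate 11 fed LF, the GBP2 diet difference was −0.043 (P = 0.66). When each pig was left out in turn, the diet difference ran from 0.39 to 0.71 for OAS1 and from 0.15 to 0.29 for OAS2. All 35 adjusted P-values for diet were above 0.99. The median diet difference was 0.045 over the list and 0.011 over all genes, and 11 of 35 differences were below 0, against 42.6% of all genes.

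No line by diet interaction was called either, with 0 of 35 genes and 0% of all genes at an adjusted P-value under 0.05 (limma; the analysis of variance gave 0 as well), and 0 of 35 against 2.33% at an unadjusted P-value under 0.05. The lowest P-value was that of XAF1, with an interaction of 0.64 (P = 0.050, adjusted P = 0.88). MX2, the paralog of MX1, came next, with line differences of 0.11 with HF and −0.41 with LF (interaction 0.52, P = 0.062). For IFI6, a mitochondrial and endoplasmic reticulum protein that limits cell death and flavivirus replication, they were 0.19 and −0.51 (interaction 0.70, P = 0.093). Both had an adjusted P-value of 0.88. When each pig was left out in turn, the interaction ran from 0.50 to 0.73 for XAF1, from 0.42 to 0.61 for MX2 and from 0.56 to 0.85 for IFI6. The IFI6 level ran from 5.96 to 8.55 in high RFI pigs fed LF and from 6.07 to 7.22 in high RFI pigs fed HF. In all, 11 of the 35 interactions were below 0, against 49.5% of all genes.

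Differences among pigs within a group were larger than those between lines or diets. The standard deviation within groups was above the 90th percentile of all 10946 genes for 15 of the 35 genes and under the 50th for 3 (STAT2, PARP9 and TRIM21). OAS1 stood at the 99.9th percentile, with an SD of 1.37 and a range of 7.18 from −1.40 to 5.77 on the log2 scale. MX1 had an SD of 0.83 (98.7th percentile) and ran from 1.70 in the high RFI pig replicate 10 fed LF to 6.36 in the high RFI pig replicate 6 fed LF. The 2 pigs with the lowest OAS1, the high RFI replicates 11 and 9 fed LF, also had the lowest OAS2 (0.86 and 1.47). Replicate 9 was at the same time the pig with the highest IFI6, IFIH1, DDX58, DHX58, USP18, XAF1 and PARP14. It also had the lowest IRF9 of all pigs (1.38), and its MX1 (3.70) and IRF7 (3.90) lay below the means of these genes, while 30 of its 35 values lay above.

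A small number of pigs held most of the highest values. The high RFI pig replicate 6 fed LF had the highest value of 14 genes, and replicate 9 of the same group that of 10. The low RFI pig replicate 11 fed LF had the highest value of 4: GBP1 (5.30), GBP2 (5.13), STAT2 and IRF1. This pig was low in MX2, with the lowest value of all pigs. At the other end, the low RFI pig replicate 5 fed HF had the lowest value of ISG15, ISG20, IFIT2, IFIT3, IFIT5, IFI44, DDX58, DHX58, IRF7, ZBP1 and HERC5. Averaged over the 35 genes, a pig's deviation from the gene means ran from −0.74 in that pig, with 5 of 35 genes above their mean, to 0.83 in the high RFI pig replicate 6 fed LF, with 34 of 35. The deviations ran from −0.74 to 0.66 in low RFI pigs (median −0.014) and from −0.59 to 0.83 in high RFI pigs (median 0.08), and the lines overlapped over nearly this whole range. The 2 high RFI pigs named above were on slides 3 and 6, and all 6 slides held pigs of the 4 groups.

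**Figure D3:**
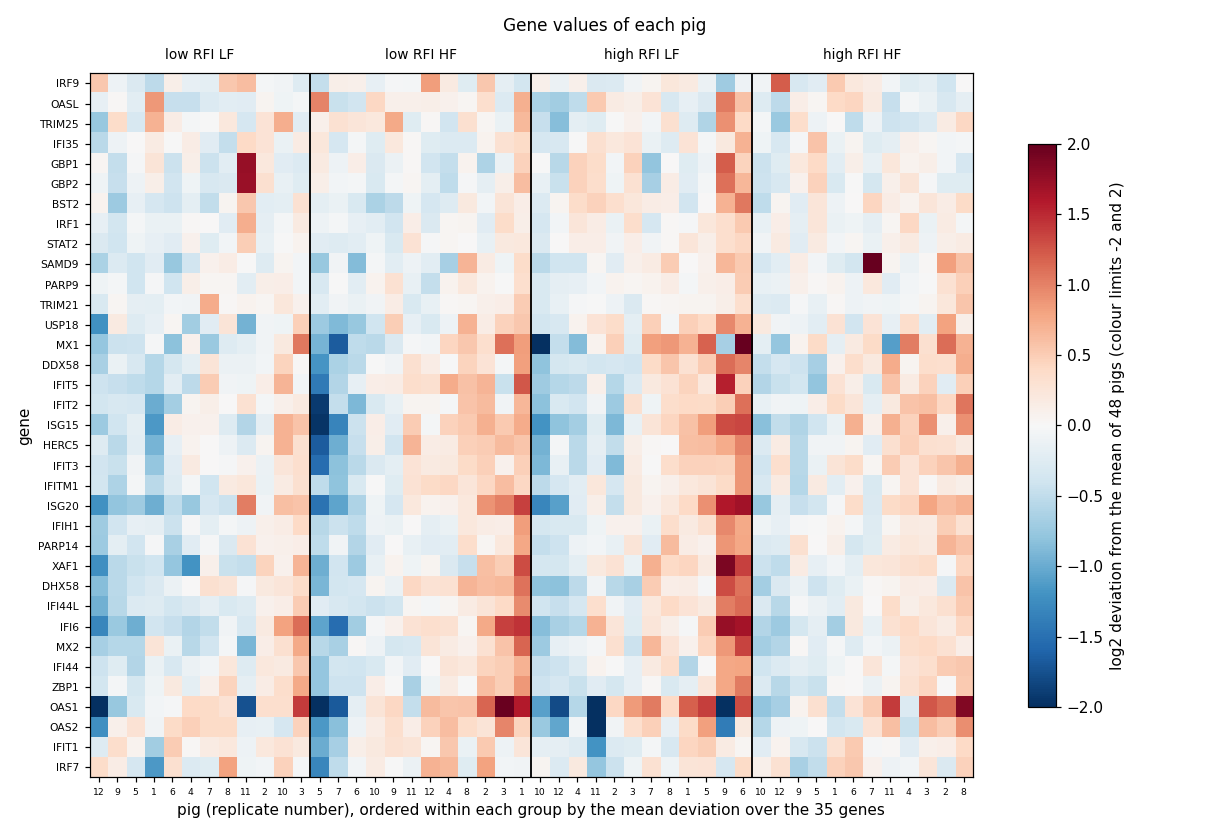
Deviation of each pig from the mean of each of the 35 genes (log2), with pigs in columns sorted into the 4 groups and genes in rows. The high RFI LF replicate 6 is above the mean in 34 of 35 genes and the low RFI HF replicate 5 in 5 of 35, and such columns occur in both lines.

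To see which genes vary together from pig to pig, group means were removed and each gene was correlated with MX1, the usual reporter of type I interferon exposure. Of the other 34 genes, 18 had an r above 0.5, against 1.75% of the 10945 genes other than MX1, and 19 had an adjusted permutation P-value under 0.05 over all 10945 relations, against 2.47%. The median r was 0.52 over the list and 0.011 over all genes. MX2, which lies next to MX1 on chromosome 13, was highest (r = 0.71, rho = 0.68, adjusted permutation P = 0.0024 for r and 0.0042 for rho). Its r was 0.63 without the 2 pigs farthest from the MX1 median, 0.67 with slide means removed, and 0.64 to 0.82 within the 4 groups. The next 9 genes were IFI6 (r = 0.67), IFITM1 (0.66), IFI44 (0.63), ISG20 (0.63), IFI44L (0.62), IFIH1 (0.62), HERC5 (0.61), ISG15 (0.59) and IFIT3 (0.59), with adjusted permutation P-values for r of 0.0024 to 0.010.

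The covariation depended in part on the extreme pigs. Without the high RFI replicates 10 and 6 fed LF, which had the lowest and highest MX1, 11 in place of 18 genes had an r above 0.5 and the median r was 0.44. With slide means removed, 19 genes were above 0.5 and the median was 0.52. Within single groups the r of IFITM1 ran from 0.25 to 0.93 and that of IFIT3 from 0.13 to 0.79. GBP1 (r = −0.05), GBP2 (0.07), IRF7 (0.16), TRIM25 (0.17) and IRF9 (−0.19) showed little or no relation with MX1. BST2 correlated with MX1 at 0.39 (adjusted permutation P = 0.21) and at 0.20 without these 2 pigs.

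Genes outside the list also followed MX1, and the 10 with the highest r are named as a description. They were IL1RN (0.78), the antagonist of the interleukin-1 receptor, TMEM154 (0.75), GADD45B (0.73), GPR84 (0.71), RAB31 (0.70), LIMK2 (0.70), RNF19B (0.69), TGFA (0.69), FFAR2 (0.68) and LOC733579 (0.68). IL1RN, TMEM154 and GADD45B had a higher r than any gene of the list. Marker genes of neutrophils correlated with MX1 to unequal degrees: over 8 of 9 markers with a spot the median r was 0.47, and 3 were above 0.5. CXCR1 was highest at 0.61 (rho = 0.59, adjusted permutation P = 0.0024 for r and 0.0099 for rho), LCN2 and LTF were both at 0.23, and MMP9 was at −0.25. Over 6 monocyte markers the median was 0.33, and over 8 T cell markers 0.01. The part of cell numbers in the covariation was not tested.

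Among all 595 pairs of the 35 genes, the median r was 0.42 and the mean 0.40, against a mean of 0.026 over all pairs of genes on the array. At an adjusted permutation P-value under 0.05 over the 595 pairs, 383 correlations were above 0 and 8 below 0. The 4 lowest were IRF9 with TRIM25 (−0.41), IRF9 with IFI35 (−0.40), IRF7 with GBP1 (−0.38) and IRF9 with IFI44L (−0.37). IRF9 was measured by 1 spot, and the spots under other names that list its transcript correlated with it at only 0.14 and 0.12. Which of them follows IRF9 was not tested. ISG20 had the highest median r with the other genes (0.66), followed by IFI6 (0.65), IFI44 (0.64) and IFIH1 (0.64).

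The heat map of pairs held tight subgroups. IFIT3 correlated at 0.92 with HERC5, at 0.91 with IFIT2 and at 0.90 with ISG15, and ISG15 at 0.90 with DDX58. OAS1 and OAS2, neighbours on chromosome 14, correlated at 0.91 (rho = 0.87, 0.70 to 0.97 within groups). GBP1 and GBP2, neighbours on chromosome 4, gave the highest r of all pairs (0.96, rho = 0.92, 0.84 to 0.98 within groups, and 0.91 without the 2 pigs farthest from the GBP1 median). Neighbours did not always track each other this closely: IFIT1 correlated at 0.63 with IFIT3 and at 0.58 with IFIT5, the genes on its sides. IFIT1 was instead most like IRF7 (0.75), the factor that amplifies interferon production. IRF7 in turn correlated at 0.65 with IRF9, whose median r with the other 34 genes was −0.13. IRF1, a factor responsive to interferon gamma, was most like STAT2 (0.84), and BST2 was most like IRF1 (0.64).

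**Figure D4:**
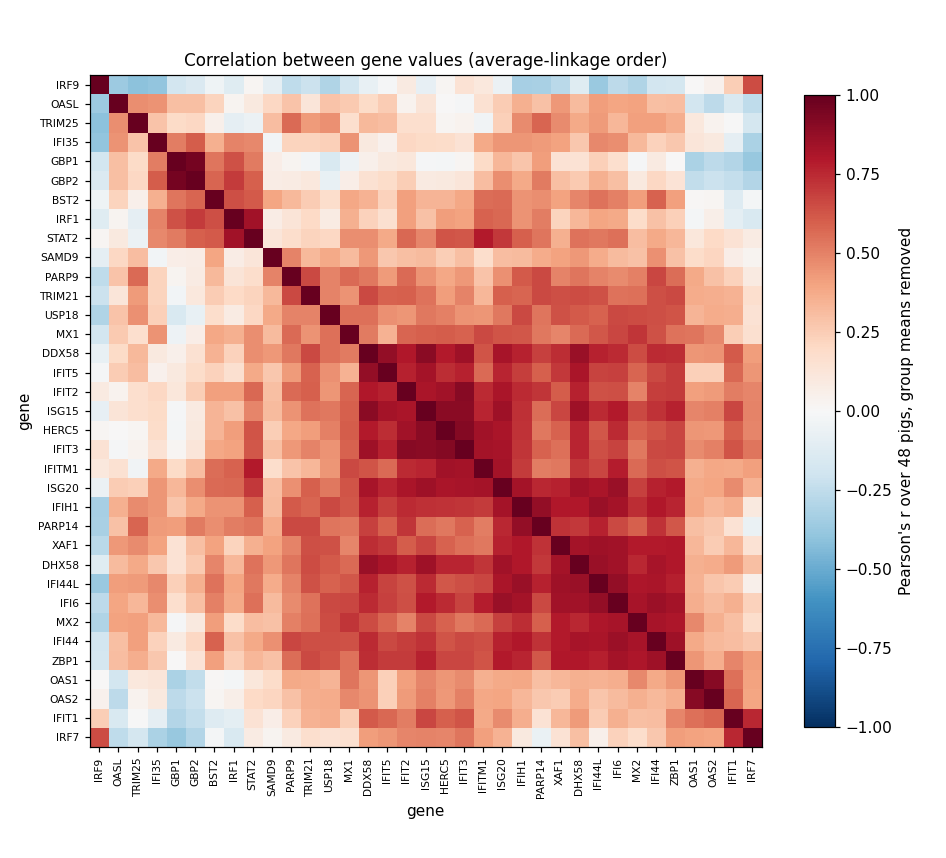
Pearson correlations of the 35 genes across 48 pigs after removal of group means, with the genes on both axes and the colour scale from −1 to 1. Most cells are above 0 (median r 0.42), GBP1 with GBP2 is the highest pair at 0.96, and IRF9, measured by 1 spot, is the gene whose row lies mostly below 0.

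The correlations of these genes with blood cell markers are given as a description, without a test. GBP1 had a median r of 0.62 with 6 NK and cytotoxic cell markers (NKG7 0.80) and of −0.42 with 6 erythroid markers. IFIT1 showed the opposite order, with a median r of 0.51 over the erythroid markers (AHSP 0.58) and −0.35 over 8 T cell markers. BST2 had a median r of 0.39 with the NK and cytotoxic markers, 0.34 with the neutrophil markers and 0.30 with the monocyte markers. Its median r was 0.10 with the B cell markers and −0.0098 with the 2 plasmacytoid dendritic cell markers. TRIM25 had a median r of 0.34 with the T cell markers (CD2 0.57).

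Some of these markers also differed between lines. For comparison, the limma fit called 1.64% of all 10946 genes as lower and 1.65% as higher in the low RFI line. Before adjustment, P was under 0.05 for 5.63% of all genes on the lower side and for 7.43% on the higher side. The difference was below 0 for 36.1% of all genes, so a value above 0 was the more common one. Of the B cell markers, 3 of 6 measured genes were underexpressed in low RFI pigs, among them MS4A1 (−0.36, adjusted P = 0.0012) and BLNK (−0.23, adjusted P = 0.022). The mean level of this list ran from 0.73 to 1.87 in low RFI pigs (median 1.2) and from 1.2 to 1.7 in high RFI pigs (median 1.41). On this level 20 of 24 low RFI pigs lay below the median of the other line, and 12 of 24 below its lowest pig. CD14 (−0.47, adjusted P = 0.037) was the 1 of 6 monocyte markers that was called, and the others included 2 differences above 0, up to 0.086. CXCR2 (−0.42, adjusted P = 0.039) was the 1 of 8 neutrophil markers that was called. The median difference of these 8 was −0.33: 5 lay below 0, 3 of them with an unadjusted P-value under 0.05, and 3 lay above 0, up to 0.31. Of the T cell markers 0 of 8 were called, but 7 lay above 0, 3 of them with an unadjusted P-value under 0.05, and the median difference was 0.14. Of 5 listed markers of plasmacytoid dendritic cells, the main source of type I interferon in blood, IL3RA, CLEC4C and SPIB had no retained spot. The 2 measured markers each had a difference of −0.21: TCF4 was called (adjusted P = 0.016) and LILRA4 was not (P = 0.046, adjusted P = 0.37). On the mean of these 2 markers, 22 of 24 low RFI pigs lay below the median of the other line. All 6 erythroid markers lay above 0 (median difference 0.11), and SLC4A1 was the 1 that was called (0.26, adjusted P = 0.040). The mean level of the neutrophil list ran from 1.43 to 4.10 in low RFI and from 1.88 to 4.53 in high RFI pigs, that of the monocyte list from 0.07 to 1.18 and from 0.26 to 1.46, and that of the plasmacytoid list from −0.05 to 0.61 and from 0.03 to 1.01. BST2 is carried by several of these cell types, and their part in its line difference was not tested.

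A second list held 92 other genes of the interferon pathway, from receptors to further targets, and 62 of them had a retained spot; none of the 6 interferon genes listed did. For line, 5 of the 62 were DE in the limma fit, against 3.29% of all genes, and 40 of 62 differences were below 0, against 36.1%. IL10RB, a receptor subunit shared by interleukin-10 and the type III interferons, ranged from −0.35 to 1.40 (median 0.25) in low RFI pigs and from 0.15 to 1.91 (median 0.75) in high RFI pigs. It was underexpressed by −0.48 (SE 0.10, adjusted P = 0.0040), and 21 of 24 low RFI pigs lay below the median of the other line. STAT3, the factor downstream of interleukin-6 and interleukin-10, was underexpressed by −0.21 (adjusted P = 0.0076), the B cell survival factor TNFSF13B by −0.36 (adjusted P = 0.035) and the immunoproteasome subunit PSMB8 by −0.42 (adjusted P = 0.045). TRIM26, a ligase, was overexpressed by 0.20 (adjusted P = 0.033) as the mean of 2 spots, but its brighter spot gave 0.0047 (adjusted P = 0.99). Under 14 alternative settings PSMB8 lost its call in 5, TRIM26 in 2, and STAT3 and TNFSF13B in 1 each. Among the next were MAVS, the adaptor of the RNA sensors (0.18, adjusted P = 0.053, and called under 4 of the 14 settings), and the interferon gamma receptor subunit IFNGR2 (−0.28, adjusted P = 0.18). By role, 8 of 10 receptors, kinases and STATs lay below 0, as did 9 of 14 sensors and adaptors, 5 of 7 regulators and 18 of 31 further targets.

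Another 19 retained spots carried no name of the list but listed a transcript that a spot of the list also lists; they were examined after the values were seen. Spots linked to MX1, ISG15, IFIT1, IFIT2, IFIT3, OAS2, OASL, DDX58, USP18 and IRF1 followed their gene, each with a correlation of at least 0.94 with 1 of its spots, some of them of the same sequence. Both spots linked to OAS1 correlated with its spots, at 0.78 for 1 of them and at 0.92 to 0.93 for the other. The spot linked to STAT2 has the sequence of A_72_P088106 and correlated at 0.88 with it, but at −0.22 to 0.13 with the other 5 STAT2 spots. Those linked to IRF9, MX2 and IRF7 correlated at 0.12 to 0.40 with the spot of the list. The linked spots called between lines, 1 of them named LOC100519082, shared listed transcripts with the spot of IFITM1, which encodes a membrane protein that blocks virus entry. The probe named IFITM1 and the probe named LOC100519082 list common transcripts, yet the longest run that the sequences share is 5 bases, so both are shown.
IFITM1 A_72_P172311: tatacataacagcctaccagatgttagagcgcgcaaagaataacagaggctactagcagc
LOC100519082 A_72_P402708: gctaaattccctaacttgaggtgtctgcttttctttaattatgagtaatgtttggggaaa
The IFITM1 spot ranged from 3.88 to 5.30 in low RFI pigs (median 4.67) and from 4.13 to 5.58 in high RFI pigs (median 4.79), and its line difference was −0.05 (adjusted P = 0.97 over all spots). The LOC100519082 spot lay between 6.56 and 8.06 in 10 pigs and between 1.71 and 3.27 in the other 38, with no value in the gap of 3.28 between them. All 10 were low RFI pigs, 4 fed LF and 6 fed HF, and 0 of 24 high RFI pigs lay above the gap. Its line difference was 2.15 (SE 0.51, adjusted P = 0.0089), and a second spot of the same sequence placed all 48 pigs on the same side of the gap, with values within 0.27 of the first. The study lists IFITM1 as overexpressed in low RFI pigs at an FC of 4.34. In the fit here that second spot had an FC of 4.34 and the LOC100519082 spot 4.43, both higher in low RFI pigs. Which spot gave the study's value was not tested. The 10 pigs were spread unevenly over slides: 7 of the 8 low RFI pigs on slides 2 and 3, the slides of scan day 2, lay above the gap, 3 of 8 on slides 4 and 5, and 0 of 8 on slides 1 and 6. Within slides the line difference ran from 0.13 to 4.53, and within scan days it was 0.97, 4.37 and 1.22. With slide or scan day as a block the adjusted P-value was 0.0028 for both. The spots IFITM1 and LOC100519082 correlated at 0.34 with group means removed, and what the second one detects was not tested.

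**Figure D5:**
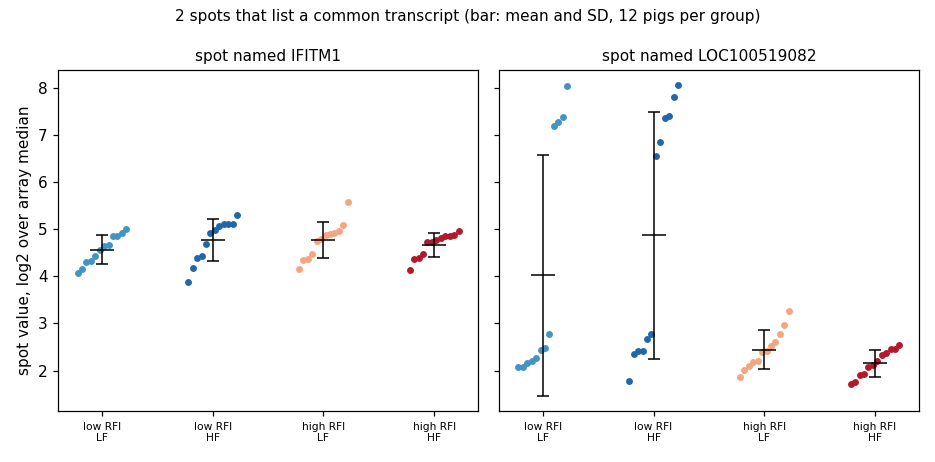
Log2 signal over the array median of the spot named IFITM1 and the spot named LOC100519082, one point per pig in the 4 groups, with bars for the mean and SD. On the second spot 10 of 24 low RFI pigs lie at 6.56 or higher and all other pigs at 3.27 or lower, while on the first the groups overlap.

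Among the 6 listed genes with no retained spot of their name, RSAD2 and EIF2AK2 were represented under older names, through the RefSeq transcripts that the spots list; these spots were found after the values were seen and enter none of the counts above. RSAD2, or viperin, makes a nucleotide that stops viral RNA synthesis, and 2 spots carried the name IRG6. The spot A_72_P303019 ranged from 0.35 to 3.64 in low RFI pigs (median 2.16) and from 0.69 to 3.53 in high RFI pigs (median 2.28). A spot without a gene name that lists the RSAD2 transcript had a line difference of −0.11 (limma P = 0.66). The 2 IRG6 spots had line differences of −0.31 and −0.13. As the mean of both spots, IRG6 had a line difference of −0.22 (SE 0.22, P = 0.32, adjusted P = 0.82) and a diet difference of 0.16 (P = 0.47), neither of them called. Its r with MX1 was 0.61 (rho = 0.60, adjusted permutation P = 0.0044 for r and 0.0099 for rho), with 0.24 to 0.85 within groups. EIF2AK2 is the kinase that halts translation when it binds double-stranded RNA, and 1 spot named it PKR. The PKR spot ranged from 1.31 to 3.14 in low RFI pigs (median 2.12) and from 1.69 to 3.09 in high RFI pigs (median 2.30), so the lines overlapped. A spot without a gene name that lists the EIF2AK2 transcript had a line difference of −0.11 (limma P = 0.32). PKR had a line difference of −0.12 (SE 0.11, P = 0.28, adjusted P = 0.79) and was not called for diet (P = 0.99). Its r with MX1 was 0.66 (rho = 0.66, adjusted permutation P = 0.0024 for r and 0.0042 for rho), 0.59 without the 2 pigs farthest from the MX1 median and 0.42 to 0.84 within groups.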

How the data were processed

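Whole-blood RNA of 48 pigs was hybridised by the authors to Agilent custom porcine 8x60K arrays with 1 colour. The authors filtered spots, took log2 of the signal and centred each array on its median, and deposited log2 values of 37113 spots (R 3.0.2 in the submitters' processing notes). The deposited scanner files hold spot intensity values. In 47 of 48 columns the deposited log2 values equalled log2 median signal intensity minus the array median within 1e-06, and the remaining column, which repeats 1 value, was rebuilt that way.

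A gene's value was the mean of the retained spots with its name. Limma 3.58.1 (R 4.3.3; lmFit, eBayes) was fitted to all 10946 genes and to all 37113 spots with line, diet and their interaction over the 4 groups, with Benjamini-Hochberg adjustment over all of them, and was tested on simulated data. The methods' analysis of variance was run as an alternative. Correlations across pigs used group means removed and 100000 permutations within groups (Python 3.11.15, numpy 2.4.6, pandas 2.3.3, scipy 1.17.1, matplotlib 3.10.9), where the smallest possible P-value is 1e-05. Gene order came from a RefSeq gene table, and 44 of the 76 spots listed a RefSeq transcript, each with the symbol of its spot. The number of arrays limits the precision, and intervals are 95% intervals.

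The gene lists were chosen with earlier results of these data known. Named were the genes called for an effect, those with a spot called, the 3 lowest P-values for diet and for interaction, the 5 largest line differences in each direction, genes whose spots disagree, the 10 highest r with MX1 and, of the pathway list, called genes and the next 3, and some genes are not reported here. Genes named by pig, neighbour or cell marker, and the spots linked by transcript (for RSAD2 and EIF2AK2 through RefSeq), were chosen after their values were seen. Left out were 7 spots of the list that the authors had not retained (BST2, TRIM21, ZBP1, DHX58, ISG20, OAS2, IFITM2). Alternatives covered the test, signal, background correction, spot filters, slide, scan day, replicate number, the rebuilt column, probe choice, naming and left-out pigs.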

Additional observations from a re-analysis of the deposited data

How the results depend on the processing

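Each line call of the listed genes was recomputed under 14 alternatives. The count of listed genes called for line went from 1 to 0 with the analysis of variance without moderation (BST2 adjusted P = 0.054), with the processed signal centred on the median (0.078) or on the 75th percentile (0.062), with all non-control spots, which add a BST2 spot well above background on 1 array (difference −0.17, adjusted P = 0.10), with the column as deposited (0.15), and without the high RFI replicates 6 and 9 fed LF (0.11). In the other 8 alternatives the count stayed at 1. The count of listed spots went from 0 to 1 with the processed signal by either scaling (STAT2), and from 0 to 1 with slide, scan day or replicate number as a block or without the rebuilt array (BST2), and to 3 with normexp (BST2 and 2 STAT2 spots). Diet and interaction counts stayed at 0 in all 14. The pathway count went from 5 to 1 with the column as deposited, which moved the median line difference of all genes from 0.027 to −0.077. The covariation count went from 18 to 11 without the 2 extreme MX1 pigs. With the replicate block BST2 had an adjusted P-value of 0.023 and 551 in place of 360 genes of the array were called. Same-numbered pigs correlated at 0.19 on average (lowest −0.62 over 72 pairs), other pigs of the same slide at 0.065 and pigs of different slides at −0.024. The labels do not give the number as a pairing, and it was not taken as one. What pigs of the same number share was not tested. No difference recomputed under these alternatives changed sign. When each pig was left out in turn, the line differences of IFIT5, IRF7 and OAS1 changed sign in 23, 17 and 3 of 48 fits and those of GBP2 and IRF9 in 1 each. Over the named genes and settings 316 values kept their side of the threshold, 15 lost a call and 5 gained one. The BST2 difference ran from −0.34 to −0.27 when each pig was left out in turn. The scan day, extreme-pig and left-out-pig settings were chosen after seeing the data. The cause of these changes was not tested.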
